A study of Bombyx mori with 4 samples.

Results

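Sequence 1 is the second longest of the 28 long sequences on which ATAC-seq peaks of the silkworm Bombyx mori were listed. Its open regions were taken as every peak whose sequence name is BHWX01000001.1 in the 4 deposited peak lists. There were 5086 such peaks among 169801 in all, namely 1346 of brain 1, 338 of brain 2, 3014 of fat body 1 and 388 of fat body 2. ATAC-seq cuts open chromatin with a transposase, so that a peak marks a stretch where reads pile up above the local background.

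The animals were wild-type P50 larvae, and each tissue had 2 libraries. All titles carry L5D3 as a stage code. The brain is the larval nervous centre. The fat body, the counterpart of liver and adipose tissue in insects, keeps energy reserves and makes the proteins of the blood. The labels give neither the sex of the larvae nor whether replicate libraries stem from separate animals, so p-values measure the spread between these libraries, which may be technical. The peak names of brain 1, however, carry 5L-4D, so results without brain 1 are given too. The tissue labels were not checked against marker genes, which were not analysed here for want of gene models of the same build.

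Silkworm chromosomes are holocentric, that is, spindle attachment is spread along the chromosome and no single centromere divides it into arms. Females are ZW and males ZZ, and chromosome 1 of the silkworm map is the Z. The lists name sequences by number and do not tie sequence 1 to a chromosome. In a tissue as a whole, fewer cells with an open region and weaker opening per cell cannot be told apart.

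The lists are of unequal length and were cut at different thresholds. Brain 1 holds 36420 peaks and brain 2 holds 11572, fat body 1 holds 107057 and fat body 2 holds 14752. The lowest −log10 p was near 5 in 3 lists and 6.69 in fat body 2, whose peak names state a q threshold. The sources used here give no read totals. For that reason sequence 1 was compared with sequences 2 to 28 inside each list, and the 4 ratios were then treated as the replicates. With 4 libraries the smallest two-sided p of the exact permutation test by sign changes is 0.125, and for 2 brain against 2 fat body libraries it is 0.333.

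Sequence 1 had the fewest peaks per Mb of all 28 long sequences in each of the 4 lists as deposited. Brain 1 had 65.2 peaks per Mb there, where the other sequences had 68.0 to 94.8 with a median of 81.8. Brain 2 had 16.4, against 19.5 to 42.9 and a median of 25.3. Fat body 1 had 146 per Mb, far outside the range of 230 to 267 spanned by the other sequences (median 243). Fat body 2 had 18.8, against 24.8 to 59.3 and a median of 33.0. Relative to the median sequence, sequence 1 thus had a density of 0.798 and 0.647 in the brain lists and of 0.601 and 0.570 in the fat body lists, numbers 1 and 2. The mean log2 ratio was -0.62 ± 0.21 (SD, n = 4 libraries), below 0 in 4 of 4 libraries, with p = 0.125 by the exact permutation test, the smallest it can give. Without brain 1 the mean was -0.72 ± 0.09 (SD, n = 3). The reference matters in the lists numbered 2, where sequence 2, the shortest of the 28, was the densest. Against only the 10 sequences of 17 Mb or longer, the ratios were 0.778 and 0.701 in brain and 0.608 and 0.676 in fat body. Sequence 1 was still the sparsest in each list. The lowest rank depended on the length of the longer lists. Over the 11572 peaks of best −log10 p in every list, brain 1 had a ratio of 0.952 and ranked 19 of 28. Fat body 1 had 0.832 and ranked 26 at that cut, while brain 2 (0.647) and fat body 2 (0.576) still ranked last.

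**Figure D1:**
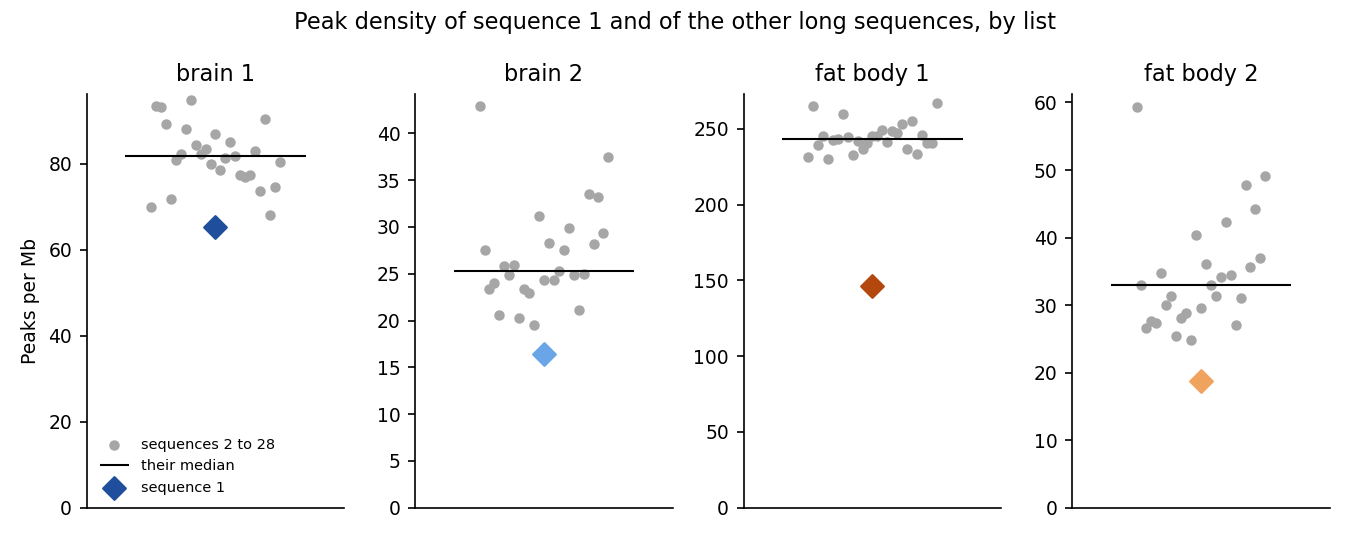
Peaks per Mb (vertical axes from 0, a separate scale for each list) in the 4 lists. Grey points are sequences 2 to 28, the line is their median, and the diamond is sequence 1, which lies lowest in every list, at 65.2, 16.4, 146 and 18.8 peaks per Mb.

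In the lists as deposited, the shortfall was larger in both fat body lists than in both brain lists, but not beyond what 4 libraries can show. The mean log2 density ratio was -0.48 ± 0.21 (SD, n = 2) in brain and -0.77 ± 0.05 (SD, n = 2) in fat body. The difference of 0.30 had p = 0.333 by the exact permutation test over libraries, the smallest it can give. The library numbers also differed, with a mean of -0.53 for the libraries numbered 1 and -0.72 for those numbered 2. Without brain 1 the tissue difference was 0.15. Over the best peaks cut to equal number it was 0.18, with p = 0.667 by the exact permutation test. The tissues then overlapped, since fat body 1 (0.832) lay above brain 2 (0.647). They overlapped too at or above the median fold, where brain 2 (0.686) lay below both fat body lists (0.850 and 0.700).

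The bases covered by peaks told the same in 3 lists and nearly so in brain 1. Peaks covered 3.29% of sequence 1 in brain 1, where sequence 26, at 3.21%, was the only one lower. They covered 0.793% in brain 2 against a median of 1.30%, 2.86% in fat body 1 against 4.95%, and 1.13% in fat body 2 against 2.07%, each the lowest of the 28 sequences. Neighbouring summits lay correspondingly far apart. The median spacing was 5454 bp in fat body 1, beyond the 2678 to 3304 bp of the other sequences, and 34702 bp in fat body 2, beyond their 11603 to 27173 bp. It was 10698 bp in brain 1 and 39045 bp in brain 2, the second widest of the 28 in both.

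Ranked by fold, the shortfall was deepest among the lowest peaks, but ranked by pile-up it was absent there. Each list was ranked by fold enrichment, the height of the summit over the local background as the authors' peak caller gave it, and cut into 10 classes of equal size over the long sequences. In the class of lowest fold the density of sequence 1 was 0.318 of the median sequence for brain 1, 0.299 for brain 2, 0.0848 for fat body 1 and 0.298 for fat body 2, the lowest of the 28 sequences in each list. In fat body 1 that is 45 peaks, or 2.18 per Mb against 25.7. In the class of highest fold the ratios were 1.11, 0.538, 0.933 and 0.890, so by this ranking the shortfall was small or gone in 3 lists and remained in brain 2, where 30 peaks fell into that class. Brain 1 had its highest ratio, 1.25, in the class just below the strongest, where only 2 sequences exceeded sequence 1. Over the peaks at or above the median fold of their list, the density ratio was 0.998 for brain 1 and 0.686 for brain 2, then 0.850 for fat body 1 and 0.700 for fat body 2.

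Other rankings gave another order. By −log10 p the class of best peaks had ratios of 0.798, 0.449, 0.822 and 0.599 for brain 1, brain 2 and the fat body lists in turn. These were ranks 26 to 28 of 28, so this class was sparse in every list. In brain 1 that held for the best class only, since the class just below it had 1.10, rank 10. Brain 2 and the fat body lists had 0.591, 0.574 and 0.620 there. The class of least −log10 p was the sparsest of the 28 in each list, with 0.683, 0.611, 0.81 and 0.563. By the reads piled up at the summit, where they could be recovered as described with the background, the class of highest pile-up had ratios of 0.706, 0.435, 0.625 and 0.541, rank 28 in each list. The class of lowest pile-up had 1.05, 1.07, 2.68 and 1.20, and in fat body 1 sequence 1 was there the densest of the 28. By local background the ratio in fat body 1 went from 1.38 in the lowest class to 0.0602 in the highest. Fold is pile-up over background, so these rankings are not independent of each other.

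**Figure D2:**
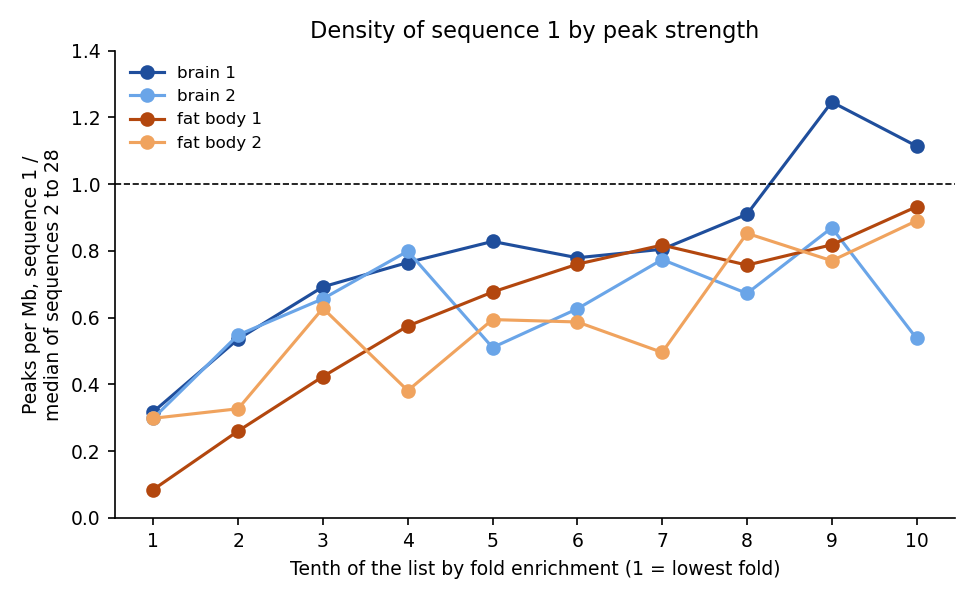
Peaks per Mb on sequence 1 divided by the median of sequences 2 to 28 (vertical axis, no unit) for 10 classes of equal size by fold enrichment (horizontal axis, 1 is the lowest), 1 line per list. In fat body 1 the ratio climbs from 0.0848 to 0.933, and in all 4 lists the lowest class lies near or below 0.3.

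Accordingly, the peaks that were listed on sequence 1 had high folds for their list. Median fold stood at 6.47 in brain 1 and 10.1 in fat body 2, each the highest of the 28 sequences, where the others reached at most 6.10 and 9.48. In fat body 1 it was 4.47, second to sequence 28 at 4.48, and in brain 2 it was 5.67, the fourth highest. The mean log2 ratio to the median sequence was 0.18 ± 0.07 (SD, n = 4), above 0 in 4 of 4 libraries, with p = 0.125 by the exact permutation test. The strongest peak by fold reached 22.6 and 38.7 in the brain lists and 37.1 and 45.5 in the fat body lists, numbers 1 and 2.

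High fold went with a low local background. Fold and −log10 p together fix the whole number of reads piled up at a summit and the background expected there, and both were recovered from them. On sequence 1 the median background was 8.29 reads in brain 1 against 9.69 on the median sequence, and 3.44 in brain 2 against 4.14. It was 5.47 in fat body 1 against 8.52, below the other sequences' 6.20 to 9.95, and 2.79 in fat body 2 against 4.23, below their 3.61 to 4.74. The background of sequence 1 was thus the lowest of the 28 in both fat body lists, and among the lowest 3 in both brain lists. The ratios were 0.856 and 0.830 for brain 1 and 2, and 0.643 and 0.660 for fat body 1 and 2.

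The background ratio separated the tissues more evenly than the density did. As log2 values its mean was -0.25 ± 0.03 (SD, n = 2) in brain and -0.62 ± 0.03 (SD, n = 2) in fat body, a difference of 0.37 with p = 0.333 by the exact permutation test, the smallest it can give. Over all libraries the mean was -0.43 ± 0.22 (SD, n = 4), below 0 in 4 of 4, with p = 0.125 by the exact test. The difference between tissues was 0.41 in the libraries numbered 1 and 0.33 in those numbered 2. The recovered pile-up at the summit was low in fat body too, at a median of 27 reads in fat body 1 against 35 and 36 in fat body 2 against 42, the lowest of the 28 in both. In brain it was 61 against 56 in brain 1 and 25 against 27.5 in brain 2. Background is known only at summits that were called, and its part in the density of sequence 1 was not tested.

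**Figure D3:**
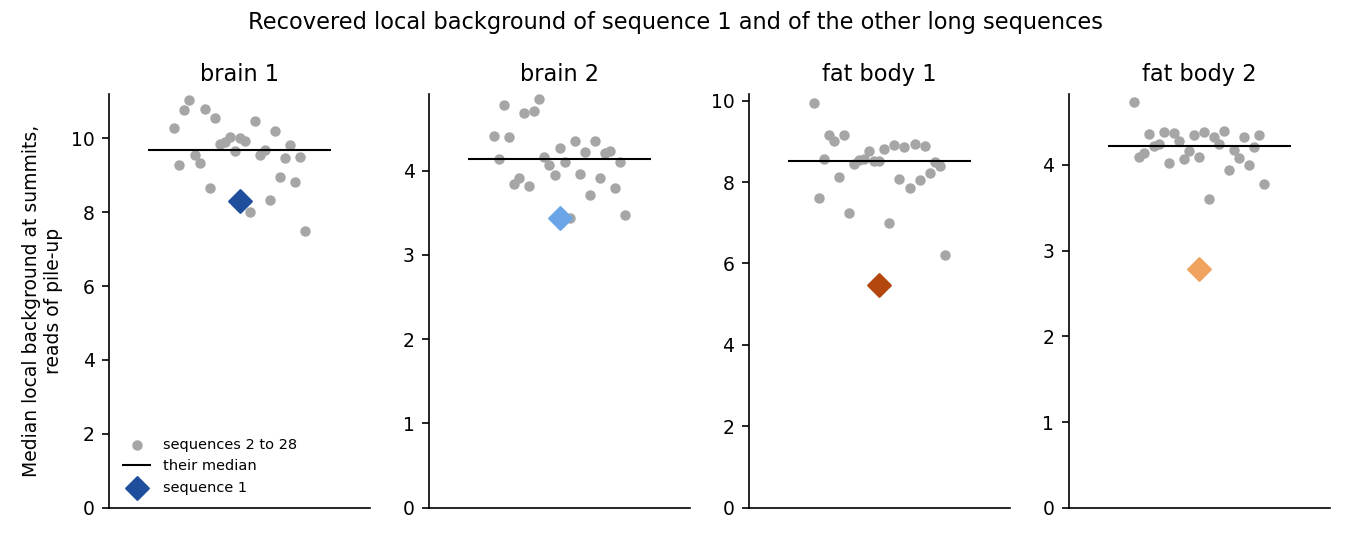
Median local background at summits, in reads of pile-up (vertical axes from 0, a separate scale for each list), recovered from fold and −log10 p. Grey points are sequences 2 to 28, the line is their median, and the diamond is sequence 1, which lies lowest in fat body 1, at 5.47, and in fat body 2, at 2.79.

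Along sequence 1 the peaks were spread fairly evenly. In its 20 full bins of 1 Mb, counted by summit, brain 1 had 50 to 89 peaks with a median of 63, and brain 2 had 8 to 28 with a median of 16. Fat body 1 had 118 to 168 with a median of 146.5, and fat body 2 had 7 to 35 with a median of 19. The low density held along nearly the whole sequence: 19 bins of brain 1, 19 of brain 2, 20 of fat body 1 and 19 of fat body 2 lay below the median of the 410 full bins of the other sequences, which was 82, 25, 245 and 32 peaks. No bin elsewhere in fat body 1 had fewer than 179 peaks, which is more than the fullest bin of sequence 1. The low background was as widespread in fat body, where all 20 bins of both lists lay below the median bin of the other sequences; in brain 1 and brain 2 it was 19 and 17 bins. Relative to its mean, the bin count of sequence 1 varied by 14.7% in brain 1 and 27.6% in brain 2, against 15.1% and 25.3% on the median sequence, and by 11.02% and 30.3% for the fat body lists, against 8.74% and 26.3%. Such a percentage tends to be larger where counts are lower. The variance over the mean was below the median sequence in every list. It was 1.39 and 1.24 in brain 1 and 2, against 1.74 and 1.62. In fat body 1 and 2 it was 1.76 and 1.74, against 1.87 and 2.25.

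**Figure D4:**
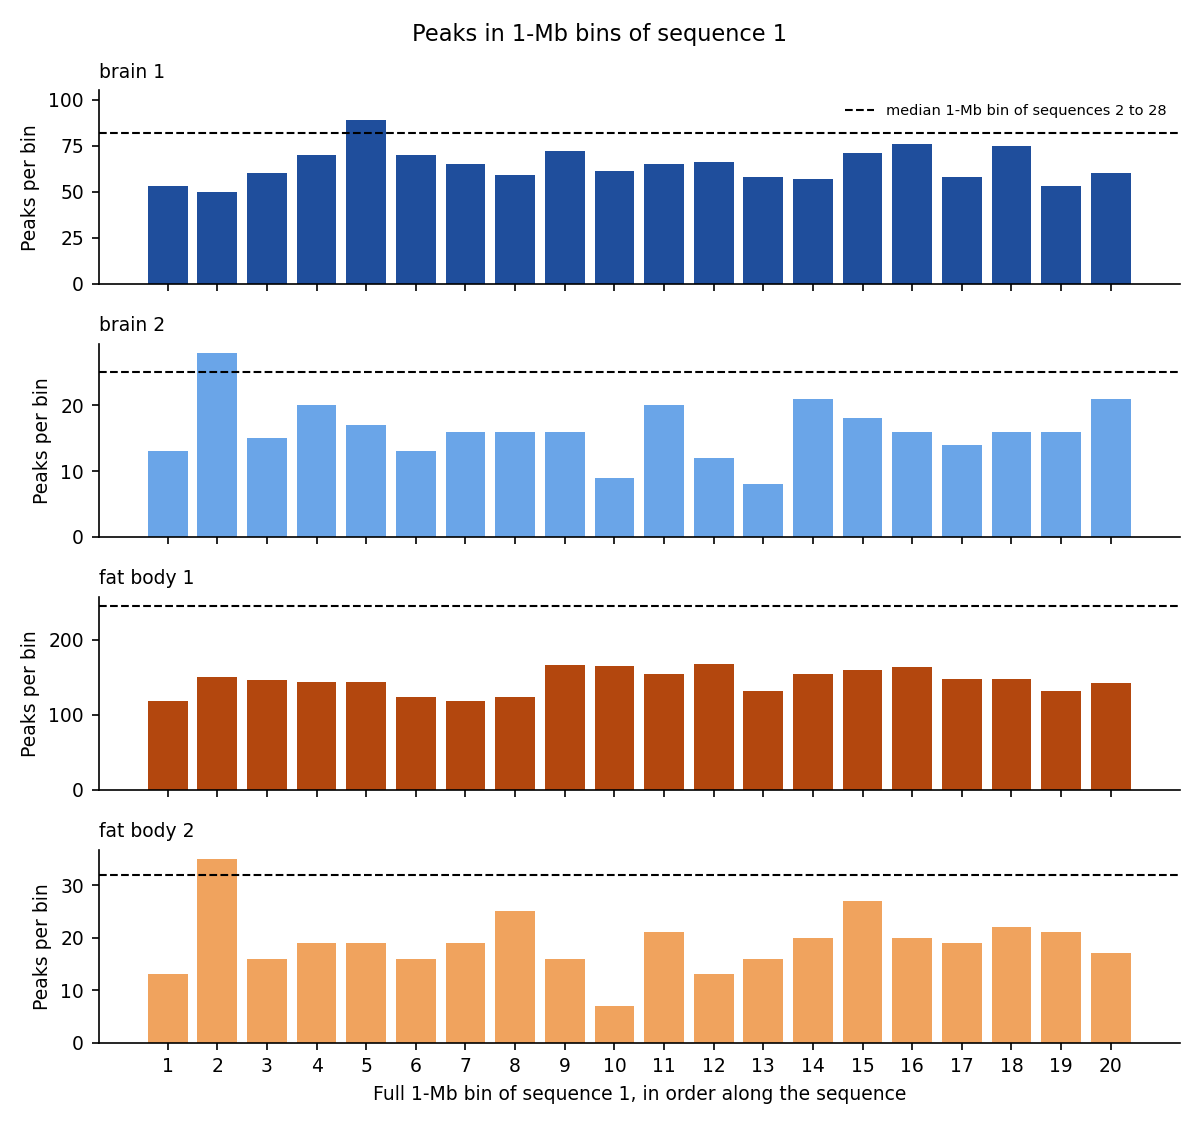
Peaks with their summit in each of the 20 full 1-Mb bins of sequence 1 (horizontal axis, in order along the sequence), 1 panel per list, with counts on vertical axes from 0. Dashed lines mark the median 1-Mb bin of sequences 2 to 28 (82, 25, 245 and 32 peaks), which at most 1 bin of sequence 1 reaches in any list.

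The fullest part over the 4 lists was the stretch from 14 to 16 Mb. Ranked by count and averaged over lists, the bin from 14 to 15 Mb came first, with 71 brain 1 peaks, 18 brain 2 peaks, 160 fat body 1 peaks and 27 fat body 2 peaks. The bin from 15 to 16 Mb followed with 76, 16, 164 and 20 peaks, and then the bin from 10 to 11 Mb with 65, 20, 154 and 21. These bins lead in the mean rank and not in any single list. Brain 1 was highest from 4 to 5 Mb with 89 peaks, its only bin above the median bin elsewhere. Brain 2 and fat body 2 were both highest from 1 to 2 Mb, with 28 and 35 peaks, where brain 1 had its lowest count of 50. Fat body 1 was highest from 11 to 12 Mb with 168. The hot spots thus differed between the libraries of a tissue, while the libraries numbered 2 shared theirs.

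The emptiest bin over the 4 lists was the first, from 0 to 1 Mb, with 53 brain 1 peaks, 13 brain 2 peaks, 118 fat body 1 peaks and 13 fat body 2 peaks. The bin from 12 to 13 Mb came next, with 58, 8, 132 and 16 peaks, the 8 being the lowest count of brain 2, and then the bin from 5 to 6 Mb with 70, 13, 124 and 16. Fat body 2 had its lowest count, 7, from 9 to 10 Mb, where fat body 1 had 165, close to its highest. The other end of the sequence differed from the first bin in the number 1 libraries. In the last 0.632 Mb there were 91.7 peaks per Mb in brain 1 and 182 in fat body 1, above the 89 and 168 of their fullest bins. Brain 2 had 20.6 and fat body 2 had 11.1 peaks per Mb there, within the range of their bins. The median background of that stretch was 7.83 reads in fat body 1, where no full bin exceeded 6.26, and 4.12 in fat body 2, where none exceeded 3.92.

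No stretch of sequence 1 reached 50 kb without a peak in any list. The longest ran from 6080712 to 6126876, or 46.2 kb, and the next from 18686246 to 18730608, or 44.4 kb. The third, from 1023220 to 1057250, the fourth, from 10827071 to 10860660, and the fifth, from 12573482 to 12606176, measured 34.0, 33.6 and 32.7 kb. The longest stretch of sequence 1 ranked 13 among the 28 sequences, whose others had a median of 42939 bp and a maximum of 118606 bp, so sequence 1 held no unusually long desert. What set it apart was the typical stretch: the median between regions was 3723 bp against 2158 bp, the widest of the 28.

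In single lists the empty stretches were longer. Brain 2 listed nothing from 12034664 to 12710521, or 676 kb, and fat body 2 nothing from 19879165 to 20351805, or 473 kb, which exceeded the longest stretch of every other sequence in that list. Stretches of 50 kb or more made up 74.7% of sequence 1 in brain 2 and 73.9% in fat body 2, the highest shares of the 28 sequences, against medians of 61.7% and 48.3%. In brain 1 they made up 15.7% against 6.79%, and in fat body 1 a single such stretch, from 6065666 to 6126876, made up 0.297%. The lengths follow the number of peaks in a list and are not compared between lists.

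The densest 50-kb windows marked small hot spots. In fat body 2 the window from 14190001 to 14240000 held 10 peaks, 10.6 times the mean window of sequence 1, and no other sequence had a window with more. Fat body 1 had 11 peaks there and brain 2 had 3, while brain 1 had none. The fat body libraries did not share their regions in it: of 19 merged regions, 10 were listed in fat body 1 alone, 6 in fat body 2 alone, and 1 in both together with brain 2. That shared region, from 14214152 to 14214685, had a fold of 12.5 in brain 2, and folds of 5.13 and 13.2 in fat body 1 and 2.

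In the other lists the densest windows were less marked. Fat body 1 had 18 peaks from 10030001 to 10080000, fewer than the best window of any other sequence, whose median was 24. Brain 1 had 11 from 4410001 to 4460000, a count that 1 other window equalled and that was the median best window elsewhere. Brain 2 had 5 from 20580001 to 20630000, near the end of the sequence, against a median of 6.

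Peak widths on sequence 1 were close to those elsewhere, unlike the density. The median width was 436 bp in brain 1 against 420 bp on the median sequence, 445 bp against 490 bp for brain 2, 160 bp against 167 bp for fat body 1, and 591.5 bp against 631 bp for fat body 2. Peaks of brain 1 were thus slightly wider than elsewhere and those of the other lists slightly narrower. Counted from the widest, sequence 1 ranked 9 of 28 in brain 1, 27 in brain 2 and fat body 1, and 26 in fat body 2. The mean log2 ratio was -0.06 ± 0.08 (SD, n = 4), below 0 in 3 of 4 libraries, with p = 0.25 by the exact permutation test. Among the widths of sequence 1, the middle part (quartiles) ran from 292 to 621 bp for brain 1, 317 to 612 bp for brain 2, 123 to 226 bp for fat body 1 and 340 to 852 bp for fat body 2. Peaks of 1000 bp or more made up 6.46% of the brain 1 list here, 1.78% of brain 2, 0.166% of fat body 1 and 5.41% of fat body 2. The last was the lowest of the 28 sequences, which had a median of 9.33%.

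Overlapping peaks (1 bp or more) were joined across the 4 lists, which gave 3992 regions on sequence 1 and 125570 on the others. Sequence 1 had 193 regions per Mb, the lowest of the 28, against 278 to 327, and they covered 6.60% of it against a median of 10.0%. Most regions belonged to a single list: 3171 of 3992, or 79.4% (95% exact binomial interval 78.1 to 80.7), where the percentage over all long sequences was 77.9. Those in 2 lists made up 16.1%, with 17.2 over all, and those in 3 lists 3.73%, with 4.04 over all. Regions in all 4 lists numbered 28, or 0.701% (0.467 to 1.01), with 0.827 over all. Intervals cover counting only, since regions are not replicates. How often regions recurred over the 4 lists was thus near the background.

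Sequence 1 had the largest share of brain regions and the smallest share of fat body regions of the 28 sequences. Regions in a brain list and in no fat body list numbered 768, or 19.2% (18.0 to 20.5), where the percentage over all long sequences was 13.3 and the other sequences had 11.2 to 15.4%. Regions in a fat body list and no brain list numbered 2480, or 62.1% (60.6 to 63.6), with 66.7 over all and 64.1 to 70.0% on the others. Regions in lists of both tissues numbered 744, or 18.6% (17.4 to 19.9), with 20.0 over all, and lay within the others' range of 16.95 to 21.9%. In absolute terms the brain lists' own regions were not dense on sequence 1: at 37.2 per Mb it ranked 19 among the 28, while the fat body lists' own regions, at 120 per Mb, ranked last.

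The single lists that made up these shares were mostly the longer ones. Brain 1 alone had 720 regions, or 18.0%, with 12.5 over all, and fat body 1 alone had 2302, or 57.7%, with 62.1 over all. Brain 2 alone had 10, or 0.251%, with 0.293 over all, and fat body 2 alone had 139, or 3.48%, with 3.11 over all. Among regions of a single list, the brain share was thus higher than over all in the number 1 libraries and not in those numbered 2.

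Regions found in both libraries of 1 tissue and neither of the other showed a shift of the same kind. There were 38 brain-only regions on sequence 1, or 0.952% (0.674 to 1.30), with 0.502 over all, and at most 0.809% on any other sequence. There were 39 fat-body-only regions, or 0.977% (0.696 to 1.33), with 1.55 over all, and at least 1.18% on any other. Brain-only regions were therefore 49.4% (37.8 to 61.0) of the 77 tissue-only regions of sequence 1, where the other sequences had 14.3 to 36.6% with a median of 23.9%. As a density, the brain-only regions of sequence 1, at 1.84 per Mb, were the fourth highest of the 28 sequences, and the fat-body-only regions, at 1.89 per Mb, ranked last. When every list was cut to the same number of best peaks, the counts became 83 and 21, and the share of brain-only regions among them, 79.8%, was the third highest. No test over regions is given for these ranks.

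**Figure D5:**
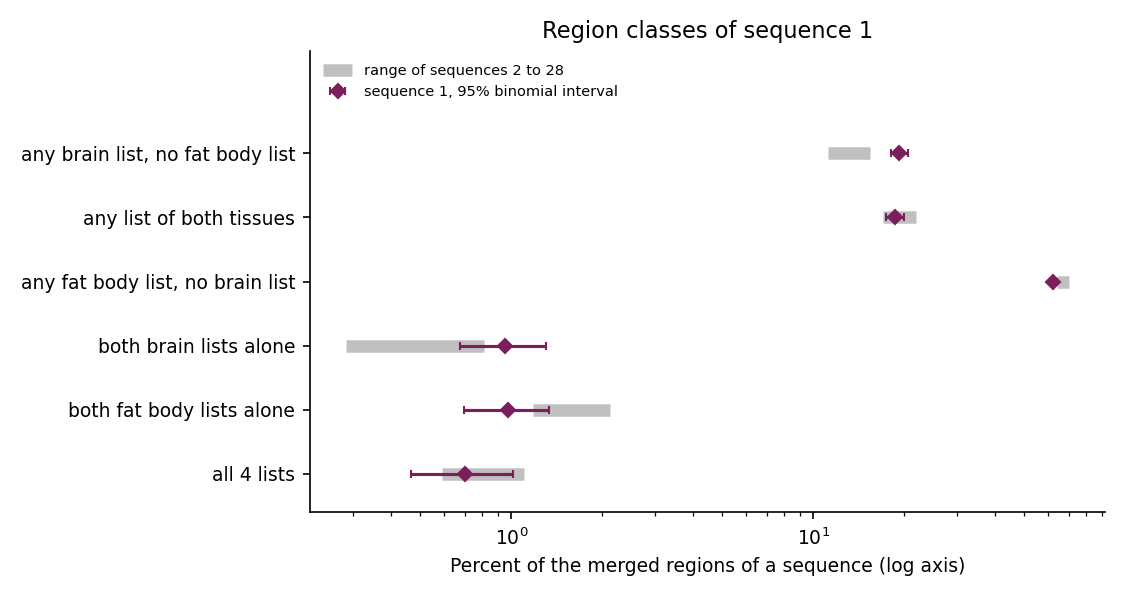
Percent of a sequence's merged regions that fall in each class (horizontal log axis). Diamonds with 95% exact binomial intervals are sequence 1 and grey bars span sequences 2 to 28. Both brain classes of sequence 1 (19.2% and 0.952%) lie right of their bars, both fat body classes (62.1% and 0.977%) lie left of theirs, and the classes shared by the tissues lie inside.

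Where the tissues differed in both library numbers, they nearly always differed in the same direction. Of 81 such regions on sequence 1, 38 were brain regions and 39 fat body regions in both numbers, and 4 pointed in opposite directions. The directions were the same in 95.1% (87.8 to 98.6), against 88.9% on sequences 2 to 28. Among regions that differed within a number, brain regions made up 24.4% in number 1 against 16.6% elsewhere, and 42.8% in number 2 against 35.2%. The share of brain regions was thus higher than elsewhere in both numbers once regions of several lists were counted too, unlike among the single-list regions of number 2.

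The libraries that share a number, not a tissue, also shared regions here. Regions in brain 1 and fat body 1 alone numbered 435, or 10.9% (9.95 to 11.9), with 11.4 over all. Those in brain 2 and fat body 2 alone numbered 128, or 3.21% (2.68 to 3.80), with 3.50 over all. Regions in all lists but fat body 2 numbered 99, or 2.48% (2.02 to 3.01), the highest share of the 28 sequences, with 1.98 over all. Regions in all lists but brain 1 numbered 27, or 0.676% (0.446 to 0.983), the lowest, with 1.35 over all. The rarest mixed classes also lay at or below the background: 19 regions (0.476%, with 0.560 over all) lacked brain 2 alone and 4 (0.100%, with 0.141 over all) lacked fat body 1 alone. Pairs that share neither tissue nor number had 2 regions each (0.0501%, with 0.110 and 0.141 over all). The number classes lay near the background. The class with both brain lists and fat body 1 lay just above the other sequences' highest share, 2.45%. That with both fat body lists and brain 2 lay just below their lowest, 0.687%. Both lay towards brain, but the class with both brain lists and fat body 2 did not.

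A larger share of the brain 2 peaks was found again in brain 1 than on most sequences, and the fat body libraries had a smaller share of their peaks in common. Regions in both brain lists, whatever the fat body lists held, numbered 169, or 4.23% (3.63 to 4.90), with 3.45 over all, although at 8.19 per Mb they were the sparsest of the 28 sequences. Regions in both fat body lists numbered 113, or 2.83% (2.34 to 3.39), the lowest share of the 28 sequences, with 4.29 over all. Of the 338 brain 2 peaks, 171 overlapped a brain 1 peak, or 50.6% (45.1 to 56.0), the third highest share of the 28 sequences, whose others had a median of 38.5%. In the reverse direction, 12.6% (10.8 to 14.4) of the brain 1 peaks overlapped brain 2, near the median of 12.1%. Of the 388 fat body 2 peaks, 111 overlapped a fat body 1 peak, or 28.6% (24.2 to 33.4), second lowest, against a median of 38.4%, and 3.82% (3.16 to 4.56) of the fat body 1 peaks overlapped fat body 2, the lowest, against 5.47%. Across tissues, 55.3% (49.9 to 60.7) of the brain 2 peaks overlapped fat body 2, the lowest of the 28, against 65.6%. Likewise 43.2% (40.6 to 45.9) of the brain 1 peaks overlapped fat body 1, the lowest, against 52.4%, and 3.94% (2.96 to 5.12) overlapped fat body 2, also the lowest, against 5.83%. The other cross-tissue shares lay nearer the rest: 46.4% of brain 2 in fat body 1 against 48.1%, 13.7% of fat body 2 in brain 1 against 14.4%, and 48.7% of fat body 2 in brain 2 against 52.5%. Of the fat body 1 peaks, 21.3% overlapped brain 1 against 20.0%, the other direction, and 5.54% overlapped brain 2 against 5.56%. Fewer peaks in the fat body lists leave fewer to overlap, and list density was not matched in these shares. On sequence 1, the best peaks cut to equal number gave 46.8% of brain 2 in brain 1 and 16.99% of fat body 2 in fat body 1. The other sequences have no values at that cut here, and the medians above belong to the uncut lists.

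The best brain-only regions, by the mean of their −log10 q percentiles in both lists, clustered near 3.1 Mb. The first ran from 3063748 to 3064155 (408 bp), with a fold of 11.6 in brain 1 and 6.63 in brain 2. The second, from 3148568 to 3149502, had folds of 8.40 and 4.80, with summits 2 bp apart, and the third, from 3069133 to 3069686, had 12.1 and 5.62, with both summits at 3069423. These 3 and another brain-only region, from 3139476 to 3141357, lay within 85.8 kb, a run noticed after the values were seen. The run was not closed in fat body: 12 of its 26 merged regions were listed in fat body 1 alone and 1 in fat body 2 alone. The remaining named brain-only regions lay from 14745073 to 14746057, with folds of 10.2 and 5.36, and from 11482382 to 11483409, with 11.4 and 5.78.

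For the 38 brain-only regions together, fold had a median of 10.1 in brain 1 and 4.65 in brain 2, against 9.55 and 4.41 for the same class on sequences 2 to 28. Their median width was 644.5 bp, against 671 bp for the class elsewhere. The summits of both libraries lay within 100 bp of each other in 27 of the 38. They were found in 16 of the 21 bins, the last partial one included. The bins from 3 to 4 Mb and from 19 to 20 Mb held most, with 5 each.

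The fat-body-only regions with the best mean percentile were scattered. The first, from 12629900 to 12630201 (302 bp), had folds of 27.2 and 16.5 in fat body 1 and 2. The second, from 6245045 to 6245321, had 20.1 and 14.0, and the third, from 3336346 to 3336857, had 19.0 and 12.5. The fourth, from 17196316 to 17196710, had 24.9 and 13.4, and the fifth, from 8041958 to 8042399, had 17.9 and 11.7, with summits 1 bp apart. Each of the 5 lay in a bin of its own.

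For the 39 fat-body-only regions together, fold had a median of 5.08 in fat body 1 and 9.24 in fat body 2, against 4.28 and 7.84 for the class elsewhere. Their median width was 536 bp, narrower than the 795 bp of the class elsewhere. The summits lay within 100 bp in 21 of the 39. They were found in 19 of the 21 bins. The bin from 15 to 16 Mb held 6 and the bin from 14 to 15 Mb held 5, against 1 and 3 brain-only regions there, whereas the bin from 19 to 20 Mb held none. Both leading bins also held the most merged regions of any kind, 217 and 215. They were the fullest in peaks by mean rank, a count to which fat-body-only regions themselves add.

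Among the regions open in all 4 libraries the one with the best mean percentile lay from 14337358 to 14338410 (1053 bp). It had folds of 15.3 and 8.88 in the brain lists and of 37.1 and 22.5 in the fat body lists, numbers 1 and 2, and the 4 summits lay within 104 bp. The second, from 10136609 to 10137561, had 15.2, 8.53, 31.9 and 16.2, and the third, from 13484602 to 13485109, had 9.62, 5.98, 23.6 and 16.7, with summits within 55 bp. The fourth lay from 11360123 to 11361211 and the fifth from 20446973 to 20447787, with folds of 32.8 and 24.3 in fat body 1. Over the 28 regions the median folds were 11.2, 6.05, 17.95 and 11.1 in the same order. Elsewhere the class had 10.999, 5.71, 13.1 and 9.90. The bin from 10 to 11 Mb held 4 of them, the most.

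The 3 widest merged regions all involved brain 1. The widest ran from 18110097 to 18114618 (4522 bp) and was a single peak of that length in fat body 1, with a fold of 30.9, joined by a weak brain 1 peak with a fold of 4.63. At its summits the background was 1.88 reads in fat body 1 and 1.38 in brain 1, with pile-ups of 88 and 10. The lowest background in either list was 1.38, so these folds rest on a background near that floor. The next, from 452912 to 455148 (2237 bp), was a brain-only region with folds of 9.09 and 4.35. The third, from 3107772 to 3109859 (2088 bp), was listed in brain 1 and fat body 1 with folds of 5.75 and 7.04, and lies inside the run of brain-only regions near 3.1 Mb. In all, 17 regions were 1500 bp or wider, or 0.426%, against 0.514% elsewhere.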

How the data were processed

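The deposited data were 1 narrowPeak list per library. MACS2 2.1.0, deepTools 3.3.0, Bowtie2, Picard and Trim Galore are named, without roles, per the submitters' processing notes. Per the deposited peak names, 3 lists were cut at a p-value and fat body 2 at a q-value of 1e-05. The sources used here give neither genome build nor read depth, so the precision from depth is unknown. The deposited lists give a fold (ratio of the summit to local background), −log10 p, −log10 q, an integer score (not used) and positions, printed 1-based.

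Sequence length was the largest peak end in any list. Background was recovered by searching whole pile-ups from 2 to 1000 for peaks with −log10 p under 250 (fold as (pile-up + 1) / (background + 1), Poisson tail, relative tolerance 2e-05); 1 pile-up matched for all 35630, 11552, 106203 and 14387 peaks searched. Python 3.11.15 and scipy 1.17.1 were used, and the code was tested on simulated data. Tests were exact permutation tests over libraries; intervals are Clopper-Pearson. Ranks are among 28 sequences. Named were the 3 fullest and 3 emptiest bins by mean rank, the densest 50-kb windows (10-kb steps), the 5 longest empty stretches, the 5 best regions per class and the 3 widest. Members and rules were chosen with earlier results of these data known. Gene models of the build were not used here, so regions carry no gene names or sequences.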

Additional observations from a re-analysis of the deposited data

How the results depend on the processing

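The settings changed were the −log10 q (at least 5), the 11572 best peaks of every list, a reference without sequences 2, 11, 23 and 24, other lengths, covered bases, a 50% overlap, summit windows and omission of each library; a reference of the 10 sequences of 17 Mb or longer and the splits by fold were added after the data were seen. The mean log2 density ratio, -0.62, stayed below 0 in all of them, but was -0.32 for peaks at or above the median fold of their list and -0.995 below it, and the tissue difference, 0.30, was 0.10 and 0.48. Against the sequences of 17 Mb or longer the density ratio was -0.54 and the tissue difference 0.21. With the same number of best peaks they were -0.44 and 0.18. Without 1 library the density ratio ran from -0.72 to -0.56, the tissue difference from 0.15 (without brain 1) to 0.45 (without brain 2), the width ratio from -0.10 to -0.03 and the background ratio from -0.50 to -0.36. Per list, the direction held in 32 of 32 values for density and 16 of 16 for background, and in 14 of 16 for width. Direction here is the sign only. The density values include brain 1 ratios of 0.998 at or above the median fold and 0.952 at equal number, both close to none. With the same number of best peaks the brain-only count was 83, the fat-body-only count 21 and that of brain 1 and fat body 1 alone 83, with 16.99% of fat body 2 found in fat body 1, since the longer lists were cut to the shortest; the share of brain-only regions still ranked first of 28 and that of fat-body-only regions 23. In brain 1 and fat body 1 the density then ranked 19 and 26 of 28. Summit windows gave 43.2% of brain 2 found in brain 1; the cause was not tested. With a tissue called from 1 library, brain-only regions ran from 42 (without fat body 2) to 758 (without brain 2), with 137 without fat body 1, and fat-body-only regions from 57 (without brain 1) to 2343 (without fat body 2), with 66 without brain 2 and 178 without fat body 1; by construction fewer lists are then required. As a replicate block, the tissue difference within library numbers was 0.30 ± 0.16 (SD, n = 2 pairs). Over the 28 sequences, deviations of same-numbered libraries had a correlation of 0.965, but the labels tie nothing to the number, so it is only a hint. Lists show no reads outside peaks, so an absent region may be a matter of depth, above all in the short lists numbered 2.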
